A study of Bos taurus with 4 samples.

Results

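The genes described here make, sense, take up, move and export cholesterol, in bovine intramuscular preadipocytes (BIP cells), the fat precursors found between muscle fibres. The 33 genes were listed by name, and a probe belonged to a gene when the array file gave that gene as its name (the older name SC5DL was read as SC5D). Of the 33 genes, 32 had a probe, 72 probes in all, among 43653 probes for 25232 gene names on the array. No probe carried the name STARD4, a carrier of sterols between membranes, so it was not analysed here. The 4 groups had 3 arrays each. ATRA cells were cultured for 6 days with 1 µM all-trans retinoic acid, 9cRA cells for 6 days with 1 µM 9-cis retinoic acid, day 6 control cells for 6 days with no retinoid, and day 0 cells were harvested at the start of adipogenic stimulation. The medium of all 3 day 6 groups held insulin (50 ng/mL), dexamethasone (0.25 µM), octanoate (5 mM), acetic acid (10 mM), penicillin, streptomycin and 10% fetal bovine serum, renewed every 2 days. The labels name no vehicle for the controls, no day 0 medium and no donor animals. Each group is a single deposited sample with 3 array files, and nothing says that these came from separate cultures, so the p-values rest on differences between arrays of a group, and that spread may be technical.

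Cholesterol is built from acetyl-CoA through mevalonate, the isoprenoid diphosphates and squalene, and lanosterol is then trimmed to cholesterol. When sterols are scarce in the endoplasmic reticulum, SCAP carries the SREBP precursors to the Golgi for cleavage, and the released factors raise transcription of the synthesis genes; when sterols are plentiful, INSIG proteins hold SCAP back. Oxysterols also activate LXR, a nuclear receptor that pairs with RXR and raises genes of cholesterol export. Retinoic acids act through RAR and RXR, and the 9-cis and all-trans forms are stereoisomers that differ in the geometry of a double bond.

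Values are log2 processed signals relative to the 75th percentile of their own array, so a gene's value can be compared between arrays but not with another gene's. A gene is represented by its brightest probe, which for all 32 genes was well above background on all 12 arrays. A gene is called higher or lower at a Benjamini-Hochberg adjusted p under 0.05 from limma, fitted to all 12 arrays and adjusted over all 17705 genes tested. The arrays lay on 3 slides of 4, which coincided with the scans. Unless a random block is named, slide as a block means slide fitted as a fixed term beside the groups. ATRA arrays 1 and 2 were on slide 2 with day 6 control arrays 2 and 3. ATRA array 3 was on slide 3 with the 9cRA arrays. Day 6 control array 1 was on slide 1 with the arrays of day 0. The 75th percentile of the raw signal was 1094 to 1359 units. Day 6 control array 1 had 103 spots of uneven brightness, against at most 2 on any other array, and 64.8% of its probes were well above background. All 12 of the stromal preadipocyte markers with a probe were above background in every group. Of 6 mature adipocyte markers, ADIPOQ was above background on no array, and the summed linear signal of the list, mostly FABP4, was 2.76 to 2.88 times the 75th percentile in ATRA, 3.01 to 3.93 in 9cRA, 70.1 to 87.6 in day 6 control and 4.06 to 4.22 in day 0. The difference in the sum was that of FABP4, a fatty acid carrier, at 1.33 in ATRA, 1.63 in 9cRA, 6.26 in day 6 control and 1.92 in day 0 on the log2 scale. CIDEC, a lipid droplet protein, was at -5.40 in ATRA, -5.12 in 9cRA, -4.71 in day 6 control and -1.87 in day 0, PLIN1 lay between -5.56 and -5.26 in all groups, and LPL was at -2.14, -1.97 and -2.10 in ATRA, 9cRA and day 6 control and at -4.60 in day 0. The part that the difference in FABP4 signal plays in the results on cholesterol genes was not tested.

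The sequences of a few probes are given as the array files hold them, 5′ to 3′, with positions on build UMD3.1. The probes of HMGCS1, NSDHL and INSIG1 are shown because these were the genes called between ATRA and 9cRA, all near the threshold, and that of ABCA1 because it had the largest rise. Capitals mark AATAAA, the usual polyadenylation signal, or a run of at least 6 identical bases. The letters AATAAA, searched on the written strand, were in 9 of the 72 probes (12.5%) and in 9.4% of all probes.
HMGCS1 probe 2, chr20:31475481-31475540, plus strand: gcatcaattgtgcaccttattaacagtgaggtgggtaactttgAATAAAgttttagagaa
NSDHL probe 2, chrX:35413090-35413149, plus strand: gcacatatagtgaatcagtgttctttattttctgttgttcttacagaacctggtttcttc
INSIG1 probe 2, chr4:117919921-117919980, plus strand: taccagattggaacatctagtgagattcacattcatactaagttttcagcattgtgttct
ABCA1 probe 1, chr8:96274035-96274094, minus strand: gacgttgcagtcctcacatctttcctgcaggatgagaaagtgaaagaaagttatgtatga

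Over 6 days of culture without retinoid, most synthesis genes fell and the exporter ABCA1 rose. In day 6 control against day 0, 22 of the 32 genes were lower and 4 were higher, where 31.3% of all genes tested were lower and 31.1% were higher. The median difference was -1.09 for the 32 genes and 0.01 for all genes tested. Among the 19 synthesis genes, 17 fell, 1 rose and 1 was not called, with a median of -1.43. RNA was taken from whole cultures, so fewer cells of a type and less RNA per cell cannot be told apart, and neither can days in culture and any difference in medium. All 26 calls had the same sign within slide 1, where day 6 control array 1 lay beside the 3 day 0 arrays. Those arrays also helped make the calls, so this is not a separate test. With slide as a block, 21 genes were lower and 2 higher.

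**Figure D1:**
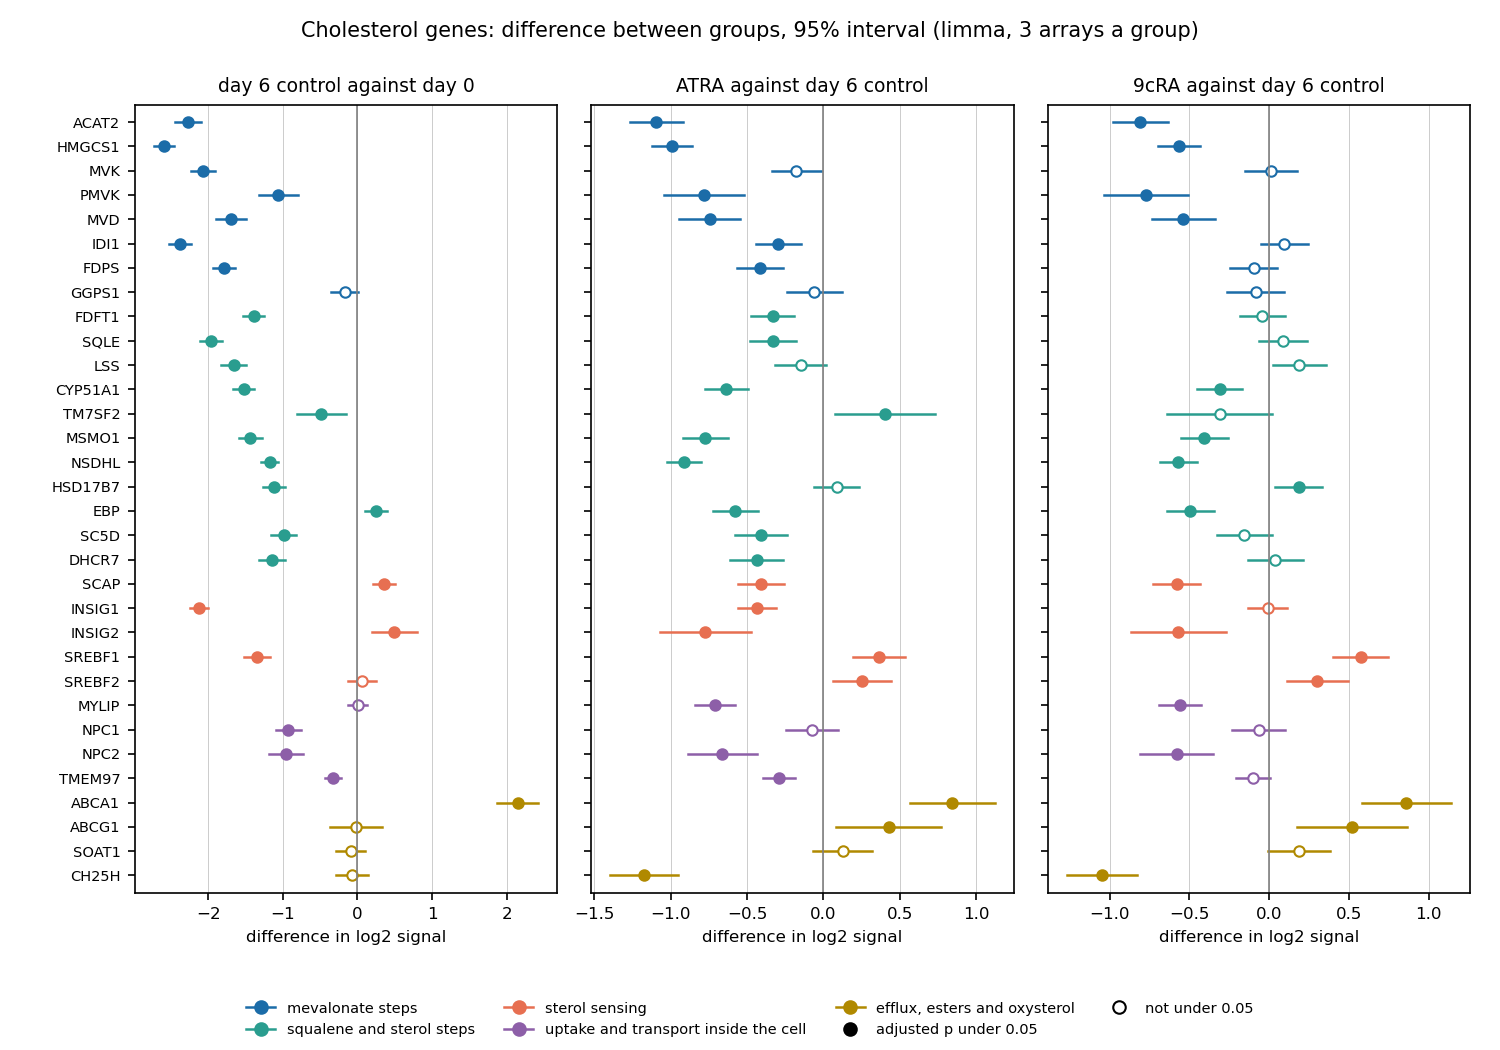
Differences in log2 signal (horizontal axis) for the 32 cholesterol genes in 3 comparisons, ordered by role and coloured by class, with 95% intervals from limma on 3 arrays a group; filled points have an adjusted p under 0.05. Over culture 22 genes lie left of 0 as filled points, 21 do so for ATRA and 13 for 9cRA, and ABCA1 lies to the right in all 3 panels as a filled point.

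The median difference was -1.93 for the 8 mevalonate genes, of which 7 fell, and -1.17 for the 11 genes from squalene on, of which 10 fell. HMGCS1, which makes HMG-CoA, was at 1.11, 1.14 and 0.96 on the day 6 control arrays and at 3.75, 3.57 and 3.66 on the day 0 arrays. These values did not overlap and gave a difference of -2.59 ± 0.0592 (SE, n = 3 each), a 6.02-fold lower signal with an adjusted p of 2e-10 (limma). IDI1, which isomerises isopentenyl diphosphate, was at 0.62, 0.49 and 0.37 on day 6 control arrays and at 2.91, 2.88 and 2.83 on day 0 arrays, and fell by 2.38. ACAT2, the cytosolic thiolase that joins acetyl-CoA units, was at -0.92, -0.96 and -1.07 on day 6 control arrays and at 1.33, 1.26 and 1.27 on day 0 arrays, and fell by 2.27. The kinase MVK fell by 2.06. FDPS, which makes farnesyl diphosphate, fell by 1.79, and MVD, which makes isopentenyl diphosphate, fell by 1.69. PMVK, the kinase after MVK, was at 0.53, 0.49 and 0.17 on day 6 control arrays and at 1.45, 1.41 and 1.51 on day 0 arrays, a difference of -1.06. GGPS1, which makes the geranylgeranyl diphosphate used in protein prenylation, was at 1.30 ± 0.122 in day 6 control and 1.47 ± 0.00625 in day 0 (SD, n = 3 each). The difference of -0.17 in its brightest probe was not called (adjusted p = 0.092, limma), while the mean of its probes was called (-0.20, adjusted p = 0.005, limma).

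SQLE, the squalene epoxidase, led the steps from squalene on and was at 3.49, 3.61 and 3.47 on day 6 control arrays and at 5.57, 5.50 and 5.39 on day 0 arrays, a difference of -1.96 (adjusted p = 3.3e-09, limma). LSS, which closes the ring to lanosterol, was at -0.62, -0.36 and -0.39 on day 6 control arrays and at 1.19, 1.25 and 1.15 on day 0 arrays, and fell by 1.65. CYP51A1, the lanosterol demethylase, was at 1.26, 1.51 and 1.35 on day 6 control arrays and at 2.95, 2.85 and 2.89 on day 0 arrays, and fell by 1.52. None of these values overlapped between the groups. MSMO1, NSDHL and HSD17B7, which take part in the removal of methyl groups, all fell, with differences of -1.43, -1.17 and -1.12. FDFT1, the squalene synthase, fell by 1.39. DHCR7, the reductase that yields cholesterol, fell by 1.14, and SC5D, a sterol desaturase, fell by 0.99. TM7SF2, a sterol reductase, was dim, and its difference of -0.48 came with overlapping arrays (adjusted p = 0.015, limma). Its adjusted p was 0.051 to 0.062 when day 6 control array 2 or 3 or day 0 array 1 or 2 was left out, and 0.39 with slide as a block. EBP, the sterol isomerase, was the exception, at 2.06, 2.18 and 1.93 on day 6 control arrays and 1.85, 1.76 and 1.81 on day 0 arrays. It was called higher by 0.25 (adjusted p = 0.0071, limma), but its adjusted p was 0.064 with median scaling and 0.062 with slide as a block, and its other probe fell, as described with the probe sequences of EBP.

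Of the 5 sensing genes 2 rose, 2 fell and 1 was not called, where 31.1% of all genes tested rose and 31.3% fell. INSIG1 was at 0.71, 0.81 and 0.75 on day 6 control arrays and at 2.90, 2.88 and 2.87 on day 0 arrays, with no overlap. It fell by 2.12, a 4.36-fold lower signal (adjusted p = 4.9e-10, limma). SREBF1, the gene of SREBP-1, was at -0.96, -1.15 and -0.91 on day 6 control arrays and at 0.28, 0.36 and 0.38 on day 0 arrays, and fell by 1.35 (adjusted p = 1.3e-07, limma). INSIG2 was at 0.50, 1.07 and 1.07 on day 6 control arrays and at 0.34, 0.37 and 0.45 on day 0 arrays, higher by 0.49 ± 0.133 (SE, n = 3 each, adjusted p = 0.0082, limma). Day 6 control array 1 was the low one, and within its slide the difference was 0.11, with an adjusted p of 0.23 when slide was a block. SCAP was at 3.45, 3.48 and 3.44 on day 6 control arrays and at 3.13, 3.16 and 3.01 on day 0 arrays, higher by 0.36. SREBF2, the gene of SREBP-2, was at 4.84, 5.13 and 5.10 on day 6 control arrays and at 4.99, 5.04 and 4.86 on day 0 arrays, and its brightest probe was not called (0.06, adjusted p = 0.56, limma).

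Of 4 genes of uptake and transport inside the cell, 3 fell and 1 was not called, where 31.3% of all genes tested fell. NPC1 and NPC2 pass cholesterol out of the lysosome. NPC2 was at 3.51, 3.44 and 3.31 on day 6 control arrays and at 4.41, 4.40 and 4.34 on day 0 arrays, a difference of -0.96. NPC1 was at 1.99, 1.99 and 2.21 on day 6 control arrays and at 3.00, 2.95 and 3.01 on day 0 arrays, a difference of -0.93. Neither gene's groups overlapped. TMEM97, a sterol-binding membrane protein that interacts with NPC1, was at 3.70, 3.72 and 3.65 on day 6 control arrays and at 4.07, 3.98 and 4.01 on day 0 arrays, a difference of -0.33. MYLIP, an LXR target whose product marks lipoprotein receptors for degradation, was at -0.69, -0.58 and -0.50 on day 6 control arrays and at -0.61, -0.59 and -0.58 on day 0 arrays. Its groups overlapped, with a difference of 0.00 and a 95% interval from -0.13 to 0.13.

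Of the 4 genes of export, storage and oxysterols, ABCA1 was the only call, where 31.1% of all genes tested rose and 31.3% fell. ABCA1, which loads cholesterol onto apolipoproteins, was at -0.83, -0.70 and -0.66 on day 6 control arrays and at -2.80, -2.93 and -2.89 on day 0 arrays. All day 6 control arrays were higher, by 2.14 ± 0.125 (SE, n = 3 each), a 4.42-fold higher signal (adjusted p = 1.5e-07, limma). ABCG1, the partner exporter to HDL, was at -2.68, -2.56 and -2.77 on day 6 control arrays and at -2.72, -2.60 and -2.64 on day 0 arrays, and was not called (-0.02). CH25H, which makes an oxysterol, was at 4.80, 4.77 and 4.73 on day 6 control arrays and at 4.85, 4.74 and 4.92 on day 0 arrays, also not called (-0.07). SOAT1, which esterifies cholesterol, was not called in any of the 6 comparisons, and its differences ran from -0.09 to 0.18.

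Set against day 6 control, most synthesis genes were lower with ATRA and fewer passed the test with 9cRA, and with both retinoids ABCA1 was higher and CH25H and MYLIP were lower. In ATRA against day 6 control, 21 of 32 genes were lower and 5 higher, where 22.4% of all genes tested were lower and 23.8% higher. In 9cRA against day 6 control, 13 were lower and 5 higher, where 21.8% of all genes tested were lower and 24.7% higher. The median difference was -0.41 for ATRA and -0.10 for 9cRA, against 0.05 and 0.06 over all genes tested. Both comparisons share the 3 day 6 control arrays. Of the 19 synthesis genes, 14 fell and 1 rose with ATRA, and 8 fell and 1 rose with 9cRA. Within slide 2, which held 2 ATRA and 2 day 6 control arrays, all 26 ATRA calls had the same sign. Those arrays also helped make the calls, so this is not a separate test. The 9cRA and day 6 control arrays shared no slide; with slide as a block, linked through the ATRA arrays, 11 genes were lower and 1 higher with 9cRA, and 22 lower and 3 higher with ATRA, and the median difference was -0.02 for 9cRA and -0.33 for ATRA.

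**Figure D2:**
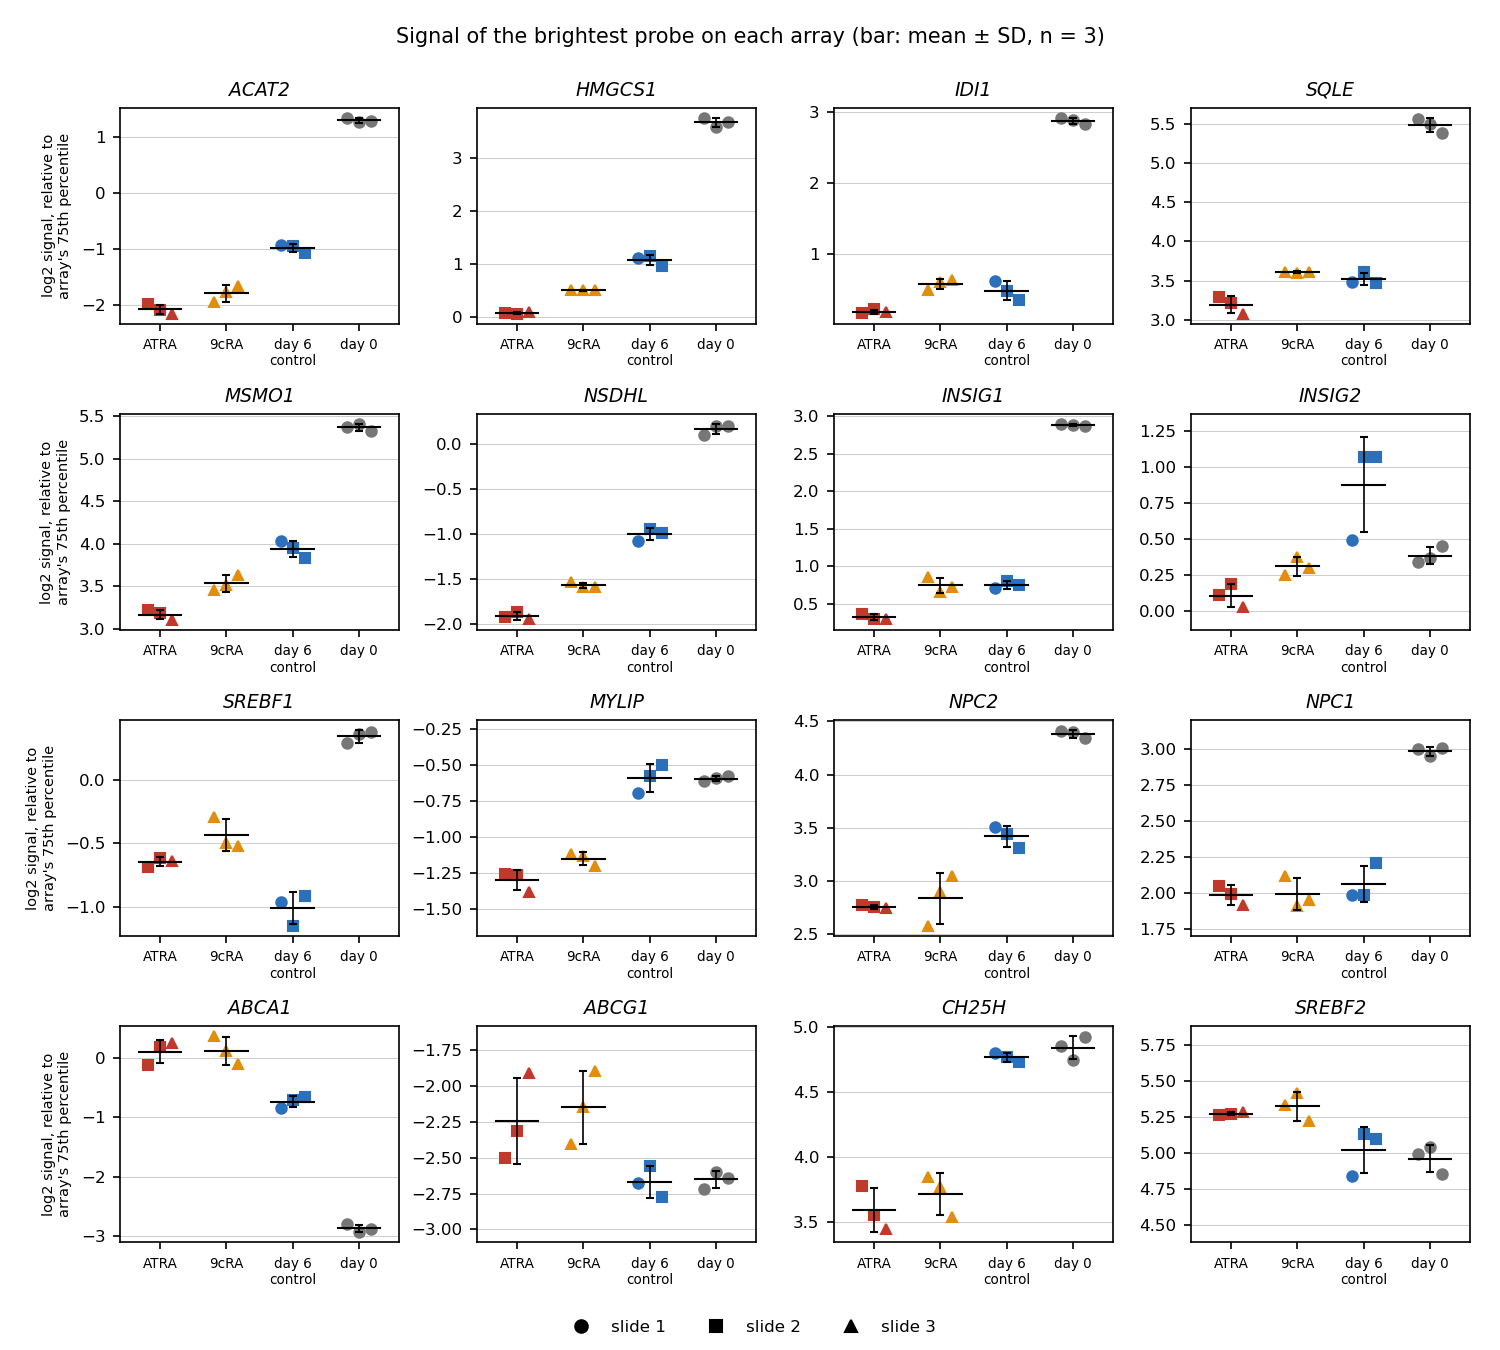
Log2 signal of the brightest probe relative to the array's 75th percentile (vertical axis) on every array of ATRA, 9cRA, day 6 control and day 0 for 16 genes; symbols give the slide, bars the mean ± SD of 3 arrays. HMGCS1 is lowest in ATRA, then 9cRA, day 6 control and day 0, while ABCA1 is highest in both retinoid groups, and INSIG2 on day 6 control array 1 lies at 0.50, below 1.07 on the other arrays of its group.

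Among the mevalonate steps, ACAT2 and HMGCS1 led in ATRA. ACAT2 was at -1.99, -2.09 and -2.15 on ATRA arrays and at -1.95, -1.76 and -1.66 on 9cRA arrays, all below the day 6 control values. It fell by 1.09 with ATRA (adjusted p = 1.4e-06, limma) and fell by 0.81 with 9cRA (adjusted p = 1.4e-05, limma). HMGCS1 was at 0.08, 0.06 and 0.09 on ATRA arrays and at 0.50, 0.51 and 0.50 on 9cRA arrays, again below every day 6 control array. Its difference was -0.99 with ATRA, a 1.99-fold lower signal, and -0.57 with 9cRA, a 1.48-fold lower signal. PMVK was at -0.40, -0.45 and -0.31 on ATRA arrays and at -0.58, -0.40 and -0.15 on 9cRA arrays. It fell by 0.78 with ATRA and fell by 0.77 with 9cRA. MVD fell by 0.74 with ATRA and fell by 0.54 with 9cRA. IDI1, at 0.18, 0.23 and 0.19 on ATRA arrays, fell by 0.30, while on 9cRA arrays it was at 0.51, 0.62 and 0.64 and was not called. FDPS fell by 0.41 with ATRA and was not called with 9cRA (-0.10, adjusted p = 0.25, limma). The brightest probes of MVK and GGPS1 were called with neither retinoid, at -0.18 and -0.06 for ATRA and 0.01 and -0.09 for 9cRA. With ATRA, MVK probe 3 (-0.28, adjusted p = 0.024) and GGPS1 probe 1 (-0.23, adjusted p = 0.028) were called lower (limma over probes). Without day 6 control array 3 the ATRA difference of MVK was -0.26 (adjusted p = 0.0036, limma). The mean of the MVK probes was called with 9cRA (-0.41, adjusted p = 0.0048, limma). That mean includes the dim probe 2, which differed by -1.17. Probe 2 was well above background on 0 9cRA arrays and 2 day 6 control arrays. With 9cRA probe 3 of MVK differed by -0.07 and was not called.

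NSDHL was at -1.92, -1.87 and -1.95 on ATRA arrays and at -1.54, -1.59 and -1.58 on 9cRA arrays, against -1.08, -0.94 and -0.98 on day 6 control arrays and 0.11, 0.20 and 0.21 on day 0 arrays. The 4 groups did not overlap. NSDHL fell by 0.91 with ATRA (adjusted p = 2.2e-07, limma) and fell by 0.57 with 9cRA (adjusted p = 8.4e-06, limma). MSMO1 averaged 3.16 ± 0.0579 on ATRA arrays (SD, n = 3) and was at 3.45, 3.51 and 3.64 on 9cRA arrays, against 4.03, 3.95 and 3.83 on day 6 control arrays and 5.38, 5.41 and 5.32 on day 0 arrays. It fell by 0.77 with ATRA and fell by 0.41 with 9cRA. The 9cRA difference was -0.27 with an adjusted p of 0.14 when slide was a block. CYP51A1, at 0.73, 0.76 and 0.72 on ATRA arrays and 1.08, 1.03 and 1.08 on 9cRA arrays, fell by 0.64 with ATRA and fell by 0.31 with 9cRA. EBP averaged 1.48 ± 0.0178 on ATRA arrays and 1.56 ± 0.0778 on 9cRA arrays (SD, n = 3 each), and fell by 0.58 with ATRA and fell by 0.50 with 9cRA. DHCR7, SC5D, SQLE and FDFT1 fell with ATRA, with differences of -0.44, -0.41, -0.33 and -0.33. None of these was called with 9cRA, where their differences were 0.04, -0.16, 0.09 and -0.04. LSS was called with neither, at -0.63, -0.58 and -0.61 on ATRA arrays and -0.16, -0.29 and -0.36 on 9cRA arrays. Its differences had opposite signs, -0.15 with ATRA and 0.19 with 9cRA. The ATRA difference was called with slide as a block (-0.23, adjusted p = 0.037, limma) and without day 6 control array 1. The 9cRA difference was called without 9cRA array 3 or day 6 control array 2 (adjusted p = 0.041 to 0.045, limma).

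A call in the other direction was made for 1 synthesis gene with each retinoid, and both were lost in other fits. TM7SF2 was higher with ATRA by 0.40 (adjusted p = 0.048, limma), with arrays that overlapped those of day 6 control. Its adjusted p ran from 0.052 to 0.15 in 8 of the 12 fits that left out 1 array. HSD17B7 was higher with 9cRA by 0.18 (adjusted p = 0.045, limma), and 8 of the 12 such fits gave an adjusted p of 0.054 to 0.15.

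Of the sensors, the INSIG genes fell with ATRA, and SREBF1 and the brightest probe of SREBF2 rose with both retinoids, while the mean of the SREBF2 probes was -0.19 with ATRA. INSIG1 was at 0.37, 0.30 and 0.31 on ATRA arrays and at 0.86, 0.66 and 0.73 on 9cRA arrays. The ATRA arrays lay below all day 6 control arrays, a difference of -0.43 (adjusted p = 0.00012, limma), and the 9cRA arrays overlapped them, with a difference of -0.01 and a 95% interval from -0.13 to 0.11. The mean of the INSIG1 probes, of which the dim one differed by 0.04 with ATRA, gave -0.20 (adjusted p = 0.14, limma). INSIG2 was at 0.11, 0.18 and 0.03 on ATRA arrays and at 0.25, 0.38 and 0.30 on 9cRA arrays, and fell by 0.77 with ATRA and fell by 0.57 with 9cRA. SREBF1 was at -0.68, -0.61 and -0.64 on ATRA arrays and at -0.29, -0.50 and -0.52 on 9cRA arrays, above every day 6 control array and below every day 0 array. It rose by 0.36 with ATRA (adjusted p = 0.0031, limma) and by 0.57 with 9cRA (adjusted p = 0.00016, limma), and with slide as a block it was the 1 gene called higher with 9cRA. SREBF2 was at 5.27, 5.28 and 5.29 on ATRA arrays and at 5.34, 5.42 and 5.22 on 9cRA arrays, higher by 0.25 and 0.30 in its brightest probe. Without day 6 control array 1 the ATRA difference was 0.16, with an adjusted p of 0.097. Leaving out ATRA array 1, 2 or 3 also ended that call, as leaving out 9cRA array 2 ended the 9cRA call. SCAP was at 3.16, 3.03 and 2.96 on ATRA arrays and at 2.98, 2.83 and 2.83 on 9cRA arrays, with differences in its brightest probe of -0.41 with ATRA and of -0.58 with 9cRA, while its other probes differed in the other direction.

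In the uptake and transport class, MYLIP was at -1.25, -1.26 and -1.38 on ATRA arrays and at -1.12, -1.13 and -1.20 on 9cRA arrays, below all day 6 control and day 0 arrays. It fell by 0.71 with ATRA (adjusted p = 4.3e-06, limma) and fell by 0.56 with 9cRA (adjusted p = 2.6e-05, limma). NPC2 was at 2.78, 2.75 and 2.74 on ATRA arrays and at 2.58, 2.90 and 3.04 on 9cRA arrays, and fell by 0.66 with ATRA and fell by 0.58 with 9cRA. The 9cRA arrays of NPC2 were spread, and its adjusted p was 0.11 with slide as a block. NPC1, at 2.05, 1.99 and 1.92 on ATRA arrays and 2.12, 1.91 and 1.95 on 9cRA arrays, overlapped day 6 control and was called with neither retinoid. TMEM97 was at 3.42, 3.42 and 3.36 on ATRA arrays and at 3.52, 3.62 and 3.63 on 9cRA arrays, and fell by 0.29 with ATRA, while the 9cRA difference of -0.10 was not called.

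ABCA1 was at -0.11, 0.19 and 0.26 on ATRA arrays and at 0.37, 0.12 and -0.10 on 9cRA arrays, above every day 6 control array. It rose by 0.84 ± 0.125 with ATRA (SE, n = 3 each, adjusted p = 0.00031, limma), a 1.79-fold higher signal. With 9cRA it rose by 0.86 ± 0.125, a 1.82-fold higher signal (adjusted p = 0.00028, limma), or by 0.59 with an adjusted p of 0.11 when slide was a block. ABCG1 was at -2.50, -2.31 and -1.91 on ATRA arrays and at -2.40, -2.15 and -1.90 on 9cRA arrays, higher by 0.43 with ATRA (adjusted p = 0.045, limma) and by 0.52 with 9cRA (adjusted p = 0.019, limma). With slide as a block the 9cRA difference of ABCG1 was 0.02, and its adjusted p was 0.05 to 0.07 when 9cRA array 2 or 3 or day 6 control array 3 was left out. Without ATRA array 3 its ATRA difference was 0.26 (adjusted p = 0.16, limma), and 9 of the 12 fits that left out 1 array ended the ATRA call. CH25H was at 3.78, 3.55 and 3.44 on ATRA arrays and at 3.84, 3.76 and 3.53 on 9cRA arrays, all below the day 6 control arrays. It fell by 1.17 with ATRA (adjusted p = 4.8e-06, limma) and fell by 1.05 with 9cRA (adjusted p = 1.2e-05, limma). CH25H was thus called with both retinoids and not over culture, while ABCA1 was higher in all 3 comparisons.

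Set against day 0, the mevalonate genes were lower in both retinoid groups, 8 of 8 in each. Of these, GGPS1 had an adjusted p of 0.052 to 0.092 in 5 of the 12 fits for ATRA that left out 1 array, and its 9cRA difference was 0.020 with slide as a block. In ATRA against day 0, 25 of 32 genes were lower and 3 higher, where 32.7% of all genes tested were lower and 38.7% higher, and the median difference was -1.49. In 9cRA against day 0, 27 were lower and 3 higher, where 32.3% of all genes tested were lower and 39% higher, and the median difference was -1.14. Both share the 3 day 0 arrays. HMGCS1 was 12-fold lower in ATRA (-3.58) and 8.91-fold lower in 9cRA (-3.16). ACAT2 was 10.3-fold lower in ATRA (-3.37) and 8.47-fold lower in 9cRA (-3.08). IDI1 was 6.38-fold lower in ATRA (-2.67) and 4.87-fold lower in 9cRA (-2.28). ABCA1 was 7.91-fold higher in ATRA (2.98) and 8.02-fold higher in 9cRA (3.00). ABCG1 and the brightest probe of SREBF2 were the other genes called higher. The mean of the SREBF2 probes was called lower, at -0.68 in ATRA (adjusted p = 0.00018, limma) and -0.37 in 9cRA (adjusted p = 0.0088, limma). With slide as a fixed block ABCA1 alone was called higher in each comparison. A random block gave 1 gene higher in ATRA and 2 in 9cRA.

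The only pair of compounds, ATRA and 9cRA, was compared at the same dose and day. Signals of synthesis genes were mostly lower with ATRA, but few differences passed the test over all genes. In ATRA against 9cRA, 3 of 32 genes were called lower and 0 higher, where 0.0565% of all genes tested, 10 genes, were lower and 0.0621%, 11 genes, were higher. At an unadjusted p under 0.05, 2 of the 32 genes were higher and 18 lower, against 5.66% of all genes tested higher and 4.86% lower. On all arrays without overlap, 1 of the 32 genes was higher and 19 were lower with ATRA, against 8.28% and 8.19% of all genes tested. The 18 genes lower at an unadjusted p were ACAT2, HMGCS1, MVK, MVD, IDI1, FDPS, FDFT1, SQLE, LSS, CYP51A1, MSMO1, NSDHL, SC5D, DHCR7, INSIG1, SREBF1, MYLIP and TMEM97. Of these 18, 14 are synthesis genes, and over the settings and left-out arrays tried the count stayed between 15 and 19.

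The genes called were HMGCS1, INSIG1 and NSDHL, whose probe sequences are given above. HMGCS1 differed by -0.43 ± 0.0592 (SE, n = 3 each), a 1.34-fold lower signal (adjusted p = 0.039, limma). INSIG1 differed by -0.42 ± 0.0557 (adjusted p = 0.037, limma), and NSDHL by -0.34 ± 0.051 (adjusted p = 0.045, limma). All 3 ATRA arrays lay below all 3 9cRA arrays for each gene. On slide 3, where ATRA array 3 lay beside the 9cRA arrays, the differences were -0.41, -0.44 and -0.38. Those arrays also helped make the calls, so this is not a separate test. These calls are near the threshold: with slide as a block none of the 32 genes was called, and the adjusted p was 0.13 for HMGCS1, 0.094 for INSIG1 and 0.08 for NSDHL. The mean of the INSIG1 probes differed by -0.15 (adjusted p = 0.74, limma). Leaving out any 1 array gave 0 to 4 lower calls, and HMGCS1 was not called in 10 of those 12 fits, INSIG1 in 10 and NSDHL in 11. Leaving out any ATRA array, 9cRA array 2 or 3, day 6 control array 2 or any day 0 array ended all 3 calls.

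Several differences of like size did not pass. DHCR7 differed by -0.48 (adjusted p = 0.057, limma), SQLE by -0.41 (adjusted p = 0.057, limma) and IDI1 by -0.39 (adjusted p = 0.075, limma). Their 95% intervals ran from -0.65 to -0.31, from -0.57 to -0.26 and from -0.54 to -0.24. For the export and oxysterol genes no difference was detected between the compounds, with -0.02 for ABCA1 (-0.30 to 0.26), -0.09 for ABCG1 (-0.44 to 0.25) and -0.12 for CH25H (-0.34 to 0.10). PMVK differed by -0.01 (-0.27 to 0.25) and NPC1 by -0.01 (-0.18 to 0.16). TM7SF2 was the gene furthest in the other direction, at -3.57, -3.35 and -3.40 on ATRA arrays and -4.01, -4.09 and -4.36 on 9cRA arrays, a difference of 0.71 that was not called (adjusted p = 0.13, limma).

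**Figure D3:**
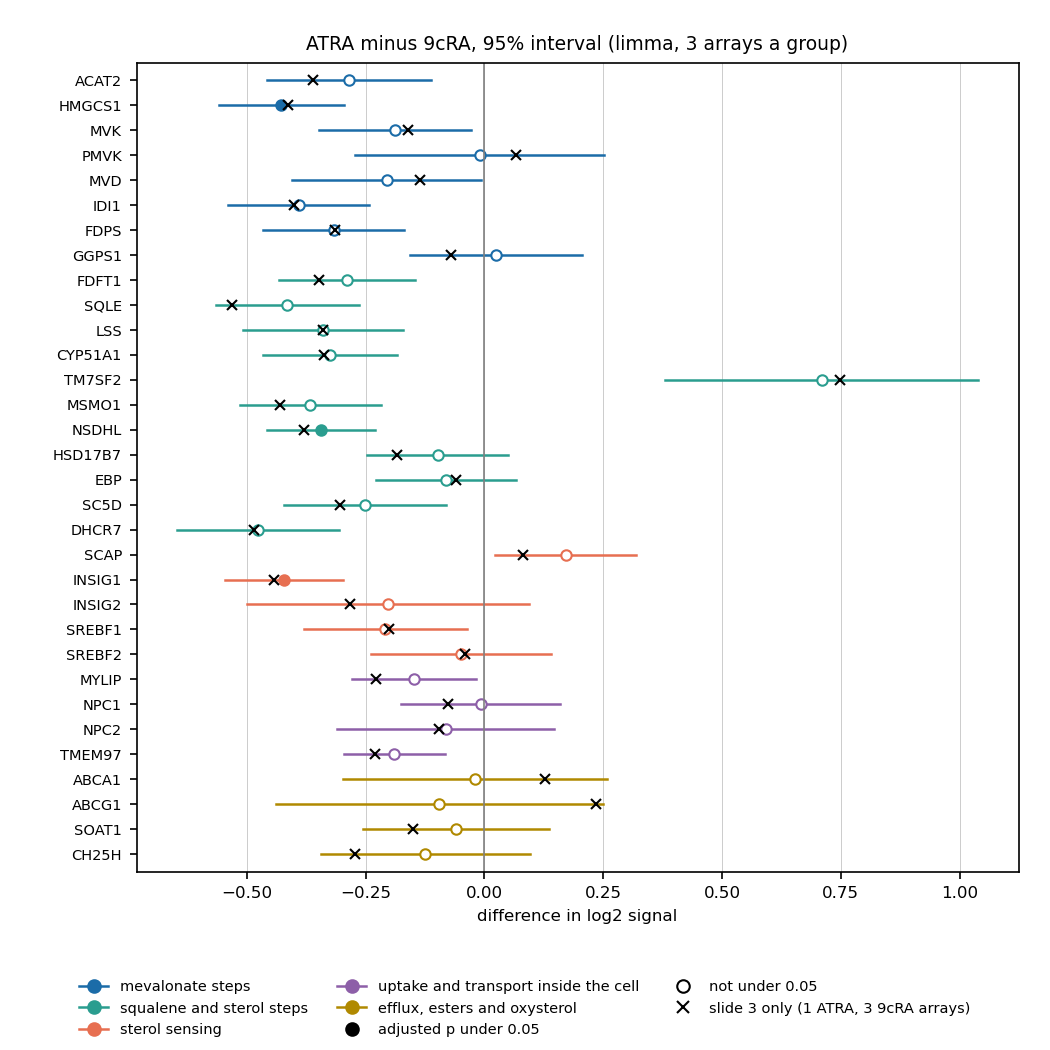
ATRA minus 9cRA in log2 signal (horizontal axis) for the 32 genes, with 95% intervals from limma on 3 arrays a group; filled points are the 3 genes with an adjusted p under 0.05, and crosses give the difference on slide 3 alone, 1 ATRA array against 3 9cRA arrays. Most synthesis genes lie left of 0 with their crosses near the points, and TM7SF2 lies furthest right at 0.71.

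Of the 32 genes, 26 had more than 1 probe well above background on every array of at least 1 group. Some of these probes were at background in another group, so the counts of signs include dim values. In day 6 control against day 0 all probes of a gene had the same sign for 23 of these 26, in ATRA against day 6 control for 22 and in 9cRA against day 6 control for 20. Of ATRA against 9cRA this held for 19, of ATRA against day 0 for 23 and of 9cRA against day 0 for 24. The 3 probes of HMGCS1 all fell, with differences of -2.63, -2.59 and -2.21 over culture and of -1.30, -0.99 and -0.73 with ATRA. Both probes of ABCA1 rose over culture, by 2.14 and by 2.42. The second probe was dim, well above background on 0 day 0 arrays and 2 day 6 control arrays. Its difference of 2.42 was thus taken from a day 0 value at background. In ATRA against 9cRA the other probe of INSIG1, which was dim, was at 0.13 and was not called, and the other IDI1 probe was called, at -0.39 (adjusted p = 0.027, limma over probes).

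GGPS1 gives a check within the array, since its probes 2 and 3 share 55 bases, shown in capitals. They differed by -0.17 and by -0.17 over culture, the second being called (adjusted p = 0.028, limma over probes). Probe 1 was also called (-0.27, adjusted p = 0.0079, limma over probes). With ATRA probes 2 and 3 differed by -0.06 and -0.12. In ATRA against 9cRA their signs were opposite, at 0.02 and -0.08, and neither was called.
GGPS1 probe 2, chr28:8123190-8123249, plus strand: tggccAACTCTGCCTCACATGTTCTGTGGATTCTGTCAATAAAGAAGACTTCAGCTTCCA
GGPS1 probe 3, chr28:8123195-8123253, plus strand: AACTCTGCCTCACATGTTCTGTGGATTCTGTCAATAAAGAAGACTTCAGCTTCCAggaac

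Probes of SREBF2, SCAP and EBP went against each other, and their sequences are shown because the direction of these genes depends on the probe. Over culture the brightest SREBF2 probe, probe 3, was not called (0.06), while probe 4 fell by 0.88 (adjusted p = 4e-05, limma over probes) and the dim probe 1 differed by -0.69. With ATRA, probe 3 was higher by 0.25 and probe 4 was at -0.26 (adjusted p = 0.075, limma over probes). For SCAP, probe 3 fell by 0.58 with 9cRA, while the dim probe 1 rose by 0.41 (adjusted p = 0.013, limma over probes) and probe 2 was at 0.18. EBP probe 2 rose by 0.25 over culture and EBP probe 1 fell by 0.33, while with ATRA both fell, with differences of -0.58 and -0.68. Averaged over their probes, SREBF2 differed by -0.50 over culture, SCAP by 0.0074 with ATRA and 0.0052 with 9cRA, and EBP by -0.041 over culture. Capitals again mark runs of at least 6 identical bases. Which probe follows the protein-coding transcript was not tested.
SREBF2 probe 3, chr5:113414593-113414652, plus strand: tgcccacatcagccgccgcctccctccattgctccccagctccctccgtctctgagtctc
SREBF2 probe 4, chr5:113415488-113415547, plus strand: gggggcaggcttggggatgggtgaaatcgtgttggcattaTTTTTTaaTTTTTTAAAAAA
SCAP probe 1, chr22:52805337-52805396, plus strand: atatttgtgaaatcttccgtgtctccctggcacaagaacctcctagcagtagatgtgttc
SCAP probe 3, chr22:52818568-52818627, plus strand: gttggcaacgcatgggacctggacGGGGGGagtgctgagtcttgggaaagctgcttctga
EBP probe 1, chrX:91738307-91738956, plus strand: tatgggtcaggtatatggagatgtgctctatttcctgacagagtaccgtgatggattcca
EBP probe 2, chrX:91739289-91739348, plus strand: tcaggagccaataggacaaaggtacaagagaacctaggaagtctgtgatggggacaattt
The listed span of EBP probe 1 is longer than its 60 bases, as for 12 of the 72 probes, so its bases are not contiguous in the genome.

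**Figure D4:**
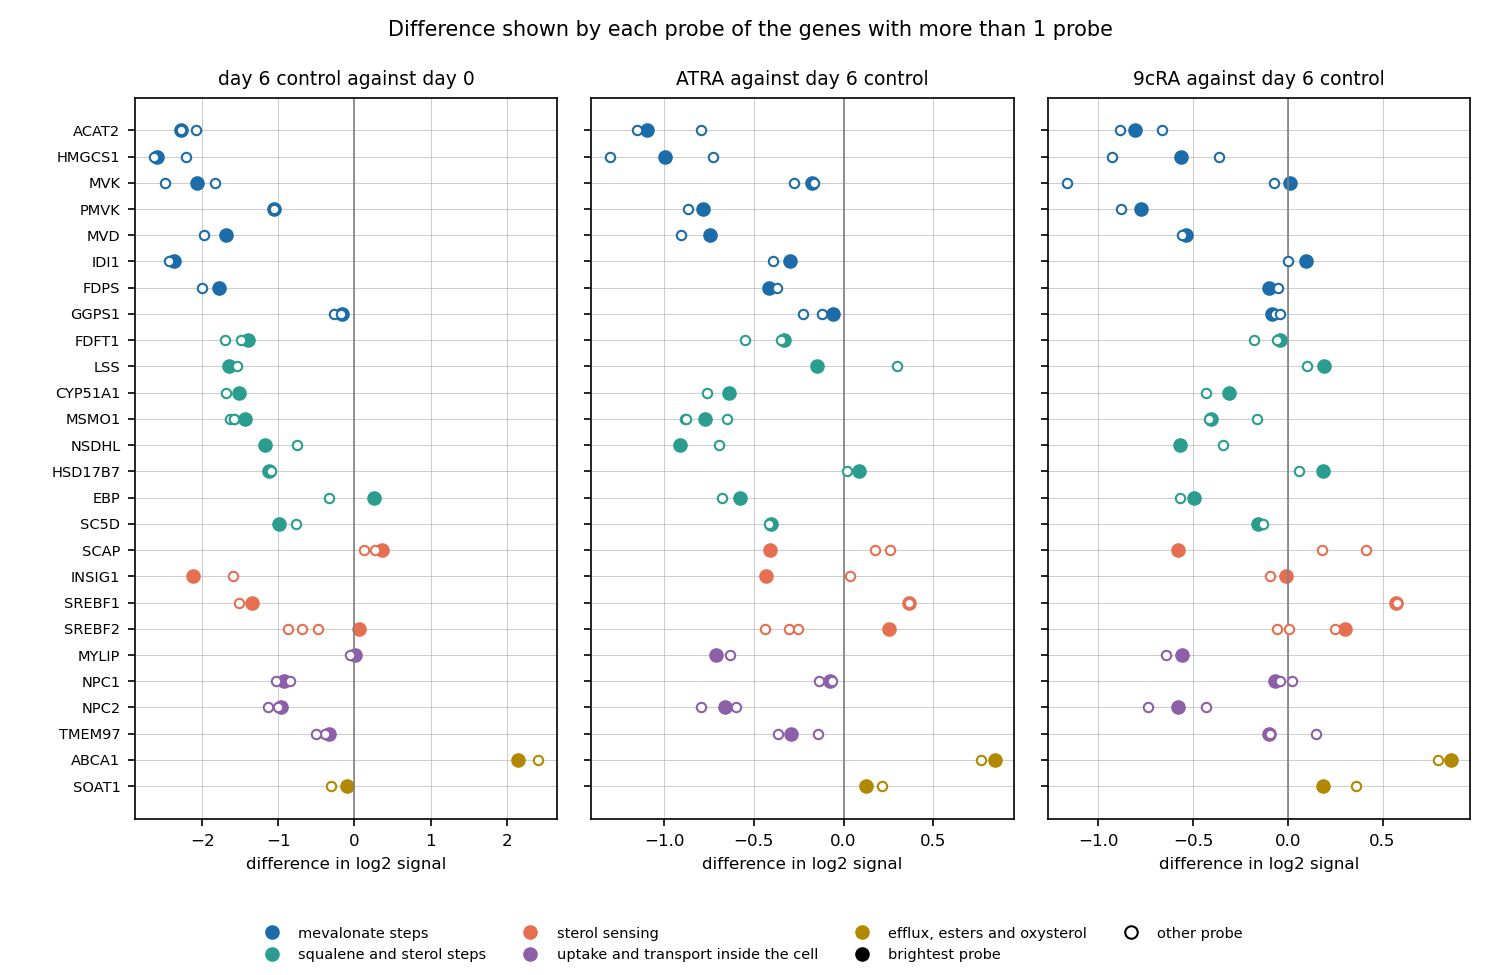
Differences in log2 signal (horizontal axis) shown by each probe of 26 genes in 3 comparisons. These genes had more than 1 probe well above background on every array of at least 1 group. The filled point is the brightest probe, open points the others, coloured by class. The probes of HMGCS1 and ABCA1 lie on the same side of 0 in all panels, while those of SREBF2 and SCAP lie on both sides with ATRA.

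Genes next to the pathway were read from lists that hold none of the 33. Their counts stand beside shares of all genes tested of 31.1% higher and 31.3% lower over culture, 23.8% higher and 22.4% lower with ATRA, and 24.7% higher and 21.8% lower with 9cRA. Of 12 genes of SREBP processing and sterol-regulated degradation, 6 rose and 4 fell over culture, led by RNF145, a ubiquitin ligase that acts on SCAP (1.37, adjusted p = 5.1e-08, limma), and by the SREBP proteases MBTPS1 (0.57) and MBTPS2 (0.48). With ATRA 3 of the 12 rose and 3 fell, and with 9cRA 4 rose and 1 fell. NFYA, a subunit of the factor that works beside SREBP on promoters, rose by 0.48 with ATRA and by 0.49 with 9cRA. The genes of its other subunits went both ways. NFYC rose by 0.17 with ATRA and by 0.24 with 9cRA, and NFYB fell, with differences of -0.23 and -0.15.

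Of 10 genes around LXR and lipid efflux, 5 rose and 3 fell over culture, with ABCA7 at 1.60 and the phospholipid transfer protein gene PLTP at 1.48. With each retinoid 5 of the 10 rose and 1 fell. LPCAT3, a phospholipid acyltransferase induced by LXR, rose by 0.76 with ATRA and by 0.99 with 9cRA, and NCOR1, a corepressor, rose by 0.89 with ATRA and by 0.92 with 9cRA. Of 7 lipoprotein and lipid uptake genes with a probe, 4 rose and 1 fell over culture, 1 rose and 5 fell with ATRA, and 1 rose and 3 fell with 9cRA. The fatty acid receptor gene CD36 rose by 2.01 over culture, fell by 0.73 with ATRA and was not called with 9cRA (-0.21). VLDLR, a lipoprotein receptor gene, fell in all 3 comparisons, with differences of -0.86 over culture and -0.97 with ATRA, and SCARB1, the HDL receptor gene, rose by 0.52 with ATRA and by 0.58 with 9cRA. Of 14 sterol transfer genes tested, 6 rose and 5 fell over culture, 7 rose and 3 fell with ATRA, and 7 rose and 2 fell with 9cRA. CAV1, the caveolin of cholesterol-rich membrane pits, rose by 1.30 over culture and fell by 2.19 with ATRA and fell by 1.95 with 9cRA. None of the genes in these lists was called between ATRA and 9cRA.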

How the data were processed

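RNA of 4 groups of bovine intramuscular preadipocytes was read on 12 Agilent arrays of 1 colour (Cy3), labelled from 100 ng of total RNA with a poly-dT primer, per the labels' protocols. The authors deposited spot intensity on a linear scale from Feature Extraction 10.7.3.1, background-subtracted and detrended, per the file headers. The deposited table of log2 values, 1 column per group, differed from group means computed here by at most 0.00904 in every difference of a listed gene; its scale, centring and direction were settled from the values (column medians 0.01 for ATRA, 0.02 for 9cRA, -0.01 for day 6 control and 0.01 for day 0).

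Each intensity was divided by its array's 75th percentile and taken to log2. Control spots and 191 spots marked as outliers by the software were left out. A gene was tested if a group had its brightest probe well above background on every array, with limma 3.58.1 in R 4.3.3 over all 12 arrays. The code was tested on simulated data. The number of arrays limits the precision: the median SD of a gene was 0.0793 in ATRA, 0.089 in 9cRA, 0.122 in day 6 control and 0.0608 in day 0. Alternatives covered background, scaling, filters, probes, slide and each array left out. The genes, their lists and the rule for naming them were chosen with earlier results of these data known. All listed genes could be named, with values on every array for up to 3 called genes of largest difference per class and comparison, and for INSIG1, SREBF1, SREBF2, ABCA1, ABCG1 and MYLIP. Of other lists, up to 3 called genes of largest difference per comparison could be named, and a few of those are left out. A planned promoter search was not run because no promoter sequences were used here.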

Additional observations from a re-analysis of the deposited data

How the results depend on the processing

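Counts of genes lower changed little: over 11 other settings and 12 fits that left out 1 array they ran from 21 to 24 over culture, 20 to 22 with ATRA and 11 to 14 with 9cRA. Counts of genes higher moved more. In ATRA against day 6 control (5) they were 2 with quantile, cyclic loess or median scaling, with no filter and with only the arrays of the groups compared, 3 with slide as a fixed block, and 2 to 5 with an array left out. In 9cRA against day 6 control (5) they were 3 with the mean of a gene's probes, slide as a random block or only the arrays compared, 1 with the fixed block, and 2 to 6 with an array left out. The fixed block gave 2 for culture (4), and 1 each for ATRA and 9cRA against day 0 (3 each); median scaling and the random block gave 1 for ATRA. Lower calls in ATRA against 9cRA (3) were 5 with cyclic loess, 6 with genes above background on all arrays, 0 with median scaling, no filter, either block or only the arrays compared, and 0 to 4 with an array left out. Genes higher at an unadjusted p (2) were 1 with median scaling, probe means, either block or only the arrays compared. Averaging probes turned EBP over culture (-0.041), SREBF2 over culture (-0.50), with ATRA (-0.19), and against day 0 in ATRA (-0.68) and 9cRA (-0.37), and SCAP with ATRA (0.0074), with 9cRA (0.0052), and against day 0 in ATRA (0.26) and 9cRA (0.25). It also called MVK lower with 9cRA (-0.41), where MVK probe 2 was well above background on 0 arrays. The fixed block turned ABCG1 (-0.0064) and GGPS1 (0.020) in 9cRA against day 0. The causes were not tested. No paired analysis was possible because array numbers name files of a single sample per group. Median scaling put the median of all genes at -0.07 in ATRA against day 0 and -0.06 in 9cRA against day 0, where scaling to the 75th percentile gave 0.06 and 0.07. The number of arrays limits small differences.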

Other observations

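Of 6 genes of acetyl-CoA supply, 4 fell and 0 rose over culture (limma, adjusted p under 0.05; no other tool was run), where 31.3% of all genes tested were lower and 31.1% higher. They were led by SLC25A1, the mitochondrial citrate carrier (-1.67, adjusted p = 7.1e-08, limma), ACSS2, which activates acetate (-1.23), and ACLY, which splits citrate to acetyl-CoA (-0.61). SLC25A1 fell by 0.74 with ATRA and fell by 0.63 with 9cRA.

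Of 12 users of isoprenoids tested, 5 rose and 3 fell over culture, 1 rose and 4 fell with ATRA, and 1 rose and 3 fell with 9cRA. Of all genes tested, 31.1% were higher and 31.3% lower over culture, 23.8% and 22.4% with ATRA, and 24.7% and 21.8% with 9cRA. DOLK, which makes dolichyl phosphate, fell by 0.78 over culture, and FNTB, a farnesyltransferase subunit, rose by 0.68. Among 5 tested enzymes of oxysterols and bile acids, CYP7B1, an oxysterol hydroxylase, rose by 3.04 over culture (adjusted p = 8e-08, limma). CYP7B1 rose by a further 0.49 with ATRA (adjusted p = 0.03, limma) and was not called with 9cRA (0.25, adjusted p = 0.24, limma). Its ATRA against 9cRA difference of 0.25 was not called either (adjusted p = 0.68, limma). CYP27A1 fell by 0.29 with ATRA and fell by 0.35 with 9cRA.

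Markers of other cell types differed in level between the groups, and their part in the results was not tested. The summed linear signal of 6 endothelial markers was 0.668 to 0.775 in ATRA and 0.627 to 0.759 in 9cRA, against 0.172 to 0.251 in day 6 control and 0.132 to 0.162 in day 0. EMCN, an endothelial sialomucin, averaged -2.23 in ATRA and -2.06 in 9cRA on the log2 scale. It averaged -6.76 in day 6 control, above background on 1 array, and -6.99 in day 0, above background on 0. VWF, KDR and TEK also averaged higher in both retinoid groups than in day 6 control. PECAM1 was above background on 1 day 0 array and 0 arrays of the other groups. CDH5 was above background on 1 9cRA array and 0 arrays of the other groups. For 6 macrophage markers the sum was 4.07 to 4.27 in ATRA, 3.81 to 4.22 in 9cRA, 1.40 to 2.13 in day 6 control and 1.90 to 2.23 in day 0, with AIF1 and CD163 above background on no array. For 6 skeletal muscle markers it was 3.25 to 3.48 in ATRA, 3.36 to 3.69 in 9cRA, 4.37 to 5.68 in day 6 control and 6.11 to 6.53 in day 0. ACTA1, skeletal muscle actin, was at -0.91 in ATRA and -0.93 in 9cRA on the log2 scale, against 1.47 in day 6 control and 2.05 in day 0. The muscle transcription factor gene MYOD1 had the opposite order, higher in ATRA (1.45) and 9cRA (1.51) than in day 6 control and day 0 (1.02), and MYOG was at -3.81 in ATRA, -3.98 in 9cRA, -4.02 in day 6 control and -4.45 in day 0.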
